A study of Danio rerio with 2 samples.

Results

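Transcripts of 8 genes of lipid uptake, transport and storage were measured in single cells sorted from zebrafish cartilage, in an nkx3.2 mutant library and a wild-type (WT) library. The genes were lpl (ENSDARG00000087697), abca1a (ENSDARG00000074635), fabp3 (ENSDARG00000023290), fabp11a (ENSDARG00000017299), rbp4 (ENSDARG00000101199), apoeb (ENSDARG00000040295), pparg (ENSDARG00000031848) and plin2 (ENSDARG00000042332). They were taken by gene symbol, are 8 of the 35117 genes of the files, and each symbol belonged to 1 gene. Of the 8, 7 had at least 1 transcript and pparg had none. The genes were chosen with their levels and genotype ratios already in view, so those values are given as a description and support nothing by themselves.

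Lipid reaches a cell largely as triglyceride in circulating lipoproteins, from which lipoprotein lipase releases fatty acids at the cell surface. Inside the cell, fatty acids are ferried by small binding proteins, burned, built into membranes or stored in droplets coated by perilipins, and surplus cholesterol leaves through ABC transporters onto apolipoproteins. Cartilage has no blood vessels of its own, so its cells are supplied by diffusion from the surrounding connective tissue, where fat-storing and stromal cells lie.

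The mutant library came from animals homozygous for the el802 allele of nkx3.2, a homeodomain transcription factor gene of the jaw joint, at 22 days post fertilization by the sample characteristics. The WT library came from animals at 21 days post fertilization. By the characteristics age thus differed with genotype, and the effects of genotype and age cannot be told apart. The protocol text gives 21 days for both libraries, so whether age differed is not settled. Both lines carried the Tg(fli1a:EGFP)y1 and Tg(sox10:DsRed)el10 reporters, and live cells positive for both were sorted and captured with the 10x Genomics 3′ v2 kit, which counts each transcript molecule once by a unique molecular identifier (UMI). The number of animals per library, and what the el802 change does to the transcript, are not given in the sources used here. With 1 library for each genotype there is no replicate, no p-value is given, and intervals in brackets are 95% intervals that cover counting error only.

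The mutant library held 16349558 UMIs in 2005 cell barcodes, with a median of 7005 per barcode, and the WT library 13927936 UMIs in 2057 barcodes, with a median of 5781. After doublets and cells rich in globin were left out, 1996 mutant and 2051 WT cells remained, and 4 barcode sequences occurred in both libraries. The nkx3.2 transcript stood at 41.5 CPM (UMIs per 1000000 UMIs of the same cells) in mutant cells and 45.6 CPM in WT cells, a mutant over WT ratio of 0.909 (0.814 to 1.01), which checks the label in neither direction. The median ribosomal protein share of a cell's UMIs was 54.0% in the mutant and 48.7% in the WT library.

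Cells were sorted into groups by marker genes that include none of the 8 genes and none of the wider lipid lists. Cells above a cut on the summed cartilage genes matn1, col2a1a, acana, col9a1a, col9a3 and lect1 were called cartilage cells and numbered 1240 in the mutant and 1315 in the WT library. The cut lay at 76.6 UMIs per 10000, and 468 of all 4047 cells lay within 0.5 log2 units of it. In cartilage cells the collagen gene col2a1a reached 10441 CPM in mutant and 17046 CPM in WT cells, so the defining markers of the labelled tissue were present in both, at a lower level in the mutant library. Within cartilage, six2a-positive cells numbered 188 mutant and 83 WT cells, perichondrial cells (tgm2l, fn1b) 274 and 334, epyc-high cells 656 and 709, and epyc-low cells 111 and 136.

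Below the cut lay 408 mutant and 322 WT fibrous cells, led by hyal4, s100a11 and ogn, and 87 mutant and 80 WT stromal cells, gated by the chemokine genes ccl25b and cxcl12a. Connective tissue markers, a list of 7 that includes col1a1a, postnb and dcn, summed to 1005 CPM in mutant and 2429 CPM in WT fibrous cells. Cartilage markers summed higher in the same fibrous cells, to 3469 CPM in the mutant and 3513 CPM in the WT library. Epithelial markers summed to 237 and 323 CPM there. Stromal cells held more of the connective tissue markers, at 2235 CPM in the mutant and 3595 CPM in the WT library. The fibrous group is the remainder below the cut, so its name marks a gate and not a cell type. Set apart before the cut were 56 mutant and 106 WT mmp13b-positive cells, led by mmp13b, mmp9 and spp1, genes of hypertrophic and remodelled cartilage. Likewise set apart were 191 mutant and 197 WT krt4-positive cells, led by krt4, krt15, cfd and icn, with mgp and f13a1b among their leading genes. Of the krt4-positive cells, 107 lay above and 281 below the cartilage cut, so this group is called by its gate alone. Genotypes were compared in the 8 groups with at least 30 cells in each library, and a ratio was formed where the libraries together held at least 20 UMIs of a gene.

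Uptake is represented by lpl, which encodes lipoprotein lipase. Its transcript was concentrated in the stromal cells of both libraries, at 167 CPM (131 to 210) in mutant and 97.7 CPM (68.4 to 135) in WT cells, from 74 and 36 UMIs. Fibrous cells followed, at 43.8 CPM in the mutant and 38.9 CPM in the WT library, and cartilage cells held 7.82 and 8.54 CPM. Stromal cells therefore stood 21.4-fold (15.5 to 29.3) above cartilage cells in the mutant library and 11.4-fold (7.52 to 17.1) in the WT library. Among cartilage groups the order of lpl levels did not go beyond the counting intervals in either library.

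The genotype ratio of lpl differed from group to group. It was 1.71 (1.13 to 2.62) in stromal cells and 2.91 (1.61 to 5.50) in krt4-positive cells, where the mutant library held 46 UMIs and the WT library 16. Of these, 24 mutant UMIs lay in 15 krt4-positive cells of cluster 10, which is led by ccl25b and cxcl12a, at 223 CPM, and 5 WT UMIs in 15 such cells, at 53.1 CPM. In cartilage cells it was 0.916 (0.675 to 1.24), from 93 mutant and 85 WT UMIs, and it stood at 1.02 when mitochondrial and ribosomal protein genes were left out of the scaling. In the fibrous group as a whole the ratio was 1.13 (0.80 to 1.60).

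The make-up of that fibrous group was not the same in the libraries. Unsupervised clusters, built without the 8 genes and the lipid lists, placed 20.6% of mutant and 38.2% of WT fibrous cells in cluster 3, led by ogn, tnmd and aspn, which are genes of tendon and ligament matrix. Over all its cells, cluster 3 held 52.3 CPM of lpl in the mutant and 21.2 CPM in the WT library, a ratio of 2.47 (1.38 to 4.53). Cluster 7, led by hyal4 and crhbp, held 112 CPM in the mutant and 48.5 CPM in the WT library, a ratio of 2.32 (1.46 to 3.81). Cluster 10, led by ccl25b and cxcl12a, held 205 and 125 CPM, a ratio of 1.63 (1.11 to 2.43). These were the 3 clusters highest in lpl in the mutant library; in WT cells cluster 13 held 24.9 CPM beside the 21.2 CPM of cluster 3, within counting error, and its ratio was 0.492 (0.188 to 1.22). Among fibrous cells alone, those of cluster 3 held 58.8 CPM in the mutant and 27.8 CPM in the WT library and those of cluster 7 held 144 and 71.4 CPM. The fibrous cells of cluster 5 went the other way, with 13.9 CPM in the mutant and 55.1 CPM in the WT library from 5 and 8 UMIs, as did those of cluster 10, with 90.3 and 156 CPM from 6 and 10 UMIs, and those of cluster 6, which held 23.8% of mutant and 19.9% of WT fibrous cells, with 11.9 and 22.2 CPM from 5 and 6 UMIs. Whether the make-up of the fibrous group sets its pooled lpl ratio was not tested.

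The share of cells with an lpl UMI, taken after every cell was thinned to 3100 UMIs, was 32.9% (22.3 to 44.9) of mutant and 18.2% (9.76 to 29.6) of WT stromal cells. In cartilage cells it was 2.54% in the mutant and 2.0% in the WT library, the level against which the stromal share can be read. Without thinning the stromal shares were 34.5% of mutant and 26.3% of WT cells, with median depths of 4932 and 4338 UMIs. Thinning left out 14 stromal cells in each library.

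Of 6 adipocyte markers, adipoqa, plin1 and cidec, which encode adiponectin and coat proteins of fat droplets, had 0 UMIs in both whole libraries. The second adiponectin gene, adipoqb, was at 0 in the mutant library and had UMIs in WT cells, and lepb had UMIs in both. The adipocyte list summed to 598 CPM in mutant and 746 CPM in WT stromal cells, where 5 of the 6 markers were at 0 and the sum was cfd, which encodes a complement factor. Endothelial markers summed to 22.6 CPM in mutant and 8.14 CPM in WT stromal cells, from 10 and 3 UMIs, with cdh5, pecam1 and tie1 at 0 in both. Mural markers summed to 85.8 CPM in mutant and 59.7 CPM in WT stromal cells, from 38 and 22 UMIs, and connective tissue markers to 2235 and 3595 CPM. Their part in the lpl difference was not tested.

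**Figure D1:**
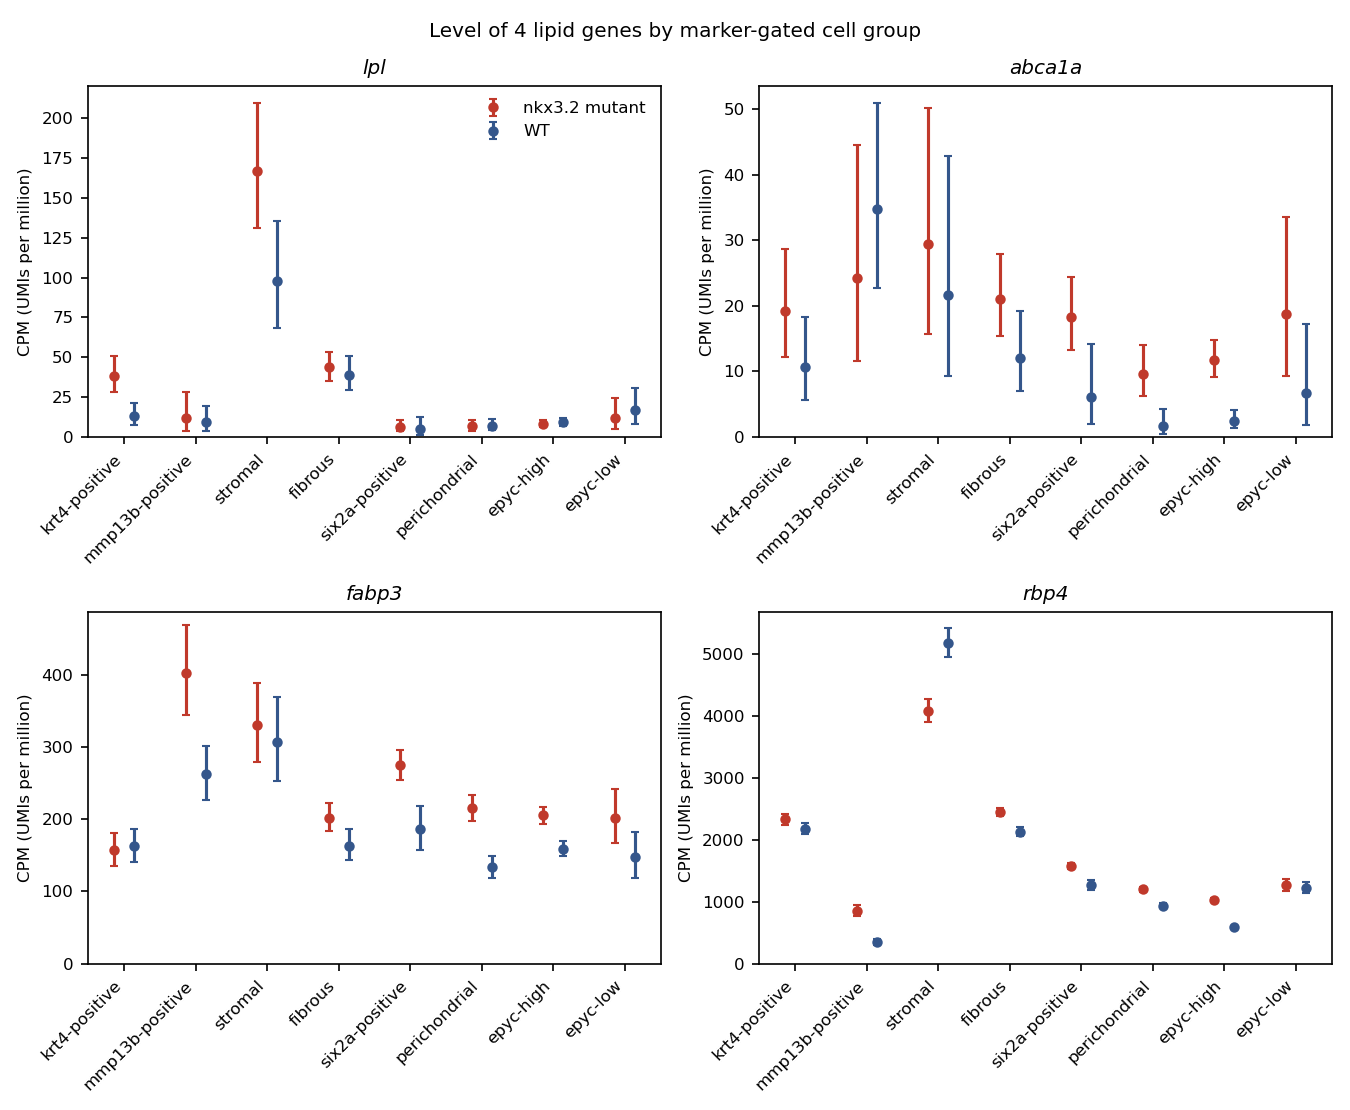
Level in CPM (linear axis) of lpl, abca1a, fabp3 and rbp4 in the 8 marker-gated cell groups, for the nkx3.2 mutant library (left point of each pair) and the WT library (right point); bars are exact Poisson 95% intervals for counting error in 1 library each. The stromal cells hold the highest lpl and rbp4 levels in both libraries, while WT abca1a is highest in mmp13b-positive cells.

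Export is represented by abca1a, whose product moves cholesterol and phospholipid out of the cell onto apolipoproteins. Of the 5 genes with a ratio in cartilage cells it had the largest, at 12.9 CPM (10.9 to 15.1) in mutant and 3.22 CPM (2.20 to 4.54) in WT cells, from 153 and 32 UMIs, a ratio of 4.0 (2.72 to 6.06). The ratio was 5.69 (1.96 to 22.5) in perichondrial cells, 4.84 (2.71 to 9.30) in epyc-high cells and 3.01 (1.20 to 9.71) in six2a-positive cells. In the perichondrial cells it rested on 25 mutant and 4 WT UMIs, and in the epyc-high cells on 72 mutant and 14 WT UMIs. The perichondrial gate asks for 5 UMIs of tgm2l and fn1b, and median depths there were 8755 mutant and 6093 WT UMIs. Cartilage cells of cluster 2, which is led by clic2, tgm2l and fn1b, held only 2 abca1a UMIs in each library. Their levels were 3.49 CPM in the mutant and 2.03 CPM in the WT library, so most mutant UMIs of the gate lay in other clusters.

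In the groups set apart before the cartilage cut, or lying below it, the abca1a ratios were smaller and their intervals held 1. Krt4-positive cells gave 1.79 (0.869 to 3.84), fibrous cells 1.74 (0.981 to 3.25) and stromal cells 1.35 (0.519 to 3.76). The mmp13b-positive cells went the other way, with 24.2 CPM in the mutant and 34.8 CPM in the WT library, from 10 and 26 UMIs, a ratio of 0.697 (0.300 to 1.49). These cells held cartilage markers at 15957 CPM in the mutant and 27165 CPM in the WT library. Of the 7 groups with a ratio, 6 were above 1 and 3, all of them cartilage groups, had an interval wholly above 1. Intervals of the fibrous and six2a-positive cells overlapped. Whether the abca1a ratio differs between cartilage and other cells was not tested.

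The order of the groups in abca1a differed between the libraries. In mutant cells its level in mmp13b-positive cells was 2.06-fold (0.947 to 4.01) that in epyc-high cells, and stromal, mmp13b-positive and fibrous cells did not differ beyond their counting intervals. In WT cells mmp13b-positive cells were the highest group, 14.3-fold (7.21 to 29.7) above epyc-high cells, and did not differ beyond counting intervals from stromal cells, at 21.7 CPM (9.37 to 42.8). The difference between these folds was not tested. Cluster 3, led by ogn and tnmd and made up mostly of fibrous and stromal cells, held 23.1 CPM in mutant and 6.35 CPM in WT cells, a ratio of 3.63 (1.33 to 11.4) from 15 and 6 UMIs. Cluster 9, led by mmp13b, held 16.2 CPM in mutant and 33.0 CPM in WT cells, a ratio of 0.490 (0.222 to 1.01), whereas cluster 0, a cartilage cluster led by prss35 and matn1, gave 3.57 (1.36 to 11).

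Cluster 1, led by zgc:153704, bhmt and eif4ebp3, held 357 mutant and 77 WT cells, and with the much smaller cluster 16 was 1 of 2 clusters with over 80% of their cells from 1 library. Its abca1a ratio was 6.30 (2.09 to 31.1), from 87 mutant and 3 WT UMIs. Leaving both clusters out took 347 mutant and 76 WT cartilage cells away and gave a cartilage ratio of 2.83, a choice made after the data were seen. Equal weight per cluster gave 2.75. Cluster 13, led by CR855311.1 and the chemokine gene cxcl8a, gave 7.28 (1.76 to 64.4) from 19 mutant and 2 WT UMIs.

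After thinning to 3100 UMIs, 4.14% (3.08 to 5.44) of mutant and 1.0% (0.518 to 1.74) of WT cartilage cells held an abca1a UMI. Without thinning these shares were 10.4% and 2.21%, at median depths of 8946 and 6775 UMIs. In krt4-positive cells the thinned shares were 1.74% in the mutant and 3.45% in the WT library, against the order of the levels, so no order is read from them.

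**Figure D2:**
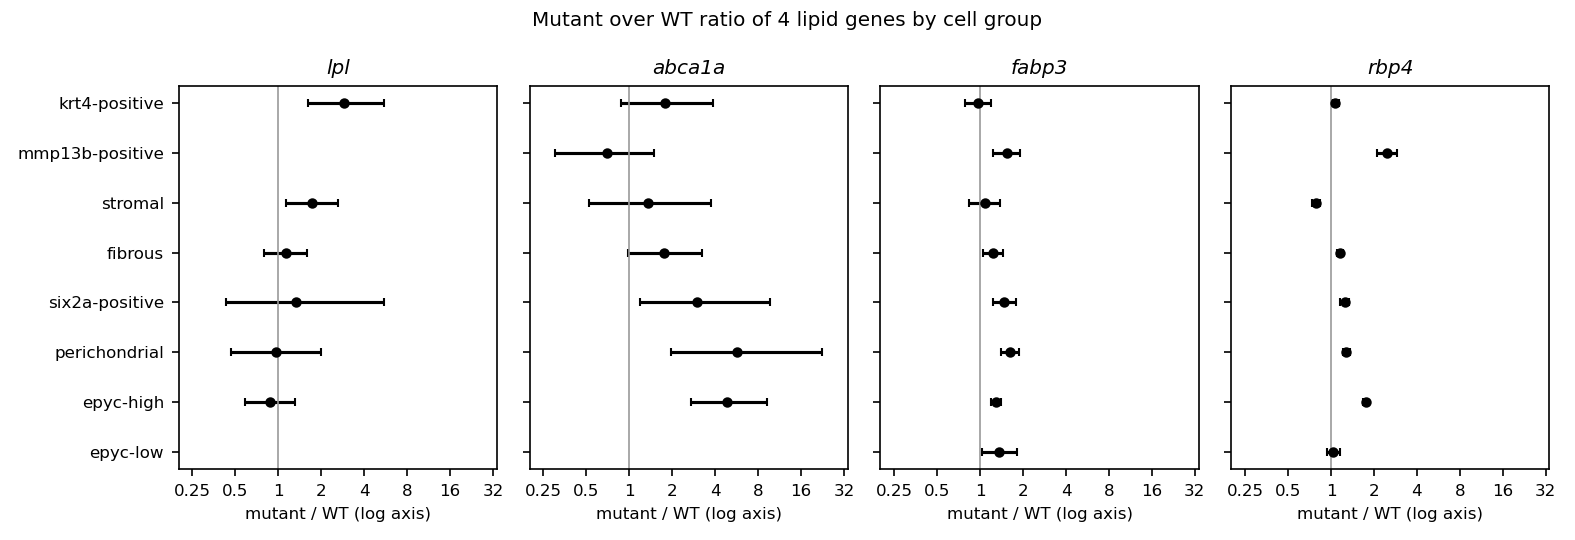
Mutant over WT ratio (log axis) of lpl, abca1a, fabp3 and rbp4 in the 8 cell groups, with exact conditional 95% intervals for counting error; the vertical line marks 1, and groups with under 20 UMIs of a gene over both libraries have no point. Ratios of abca1a lie between 3.01 and 5.69 in the 3 cartilage groups with a value, and at 0.697 in mmp13b-positive cells.

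Carriage inside the cell is represented by fabp3, which encodes the fatty acid binding protein of heart and muscle in mammals. It was found in every group, with 3648 UMIs in mutant and 2332 UMIs in WT cells, and with at least 1 UMI in 54.3% of mutant and 42.8% of WT cells before thinning. Among the 8 groups compared its level was highest in mmp13b-positive cells of the mutant library, at 402 CPM (343 to 468), where WT cells held 262 CPM (227 to 302). Stromal cells, at 330 CPM (278 to 388) in the mutant and 307 CPM (253 to 369) in the WT library, did not differ from them beyond counting intervals in either library. The col10a1a-positive cells, too few to compare, held 579 CPM (443 to 744) in 11 mutant cells and 193 CPM (152 to 242) in 53 WT cells. Cartilage cells as a whole held 225 CPM (216 to 233) in the mutant and 155 CPM (148 to 163) in the WT library.

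The genotype ratio of fabp3 was small and ran one way in nearly every group. In cartilage cells it was 1.45 (1.36 to 1.54), in perichondrial cells 1.62 (1.41 to 1.86), in mmp13b-positive cells 1.53 (1.24 to 1.90) and in fibrous cells 1.24 (1.05 to 1.46). Of 8 groups, 7 were above 1, and 6 had intervals wholly above 1. The krt4-positive cells were the exception at 0.964 (0.786 to 1.18), a value that ranged from 0.815 to 1.06 over the alternatives, the highest under TMM scaling. Of the 14 clusters with at least 30 cells in each library, 14 had a ratio above 1 and 7 an interval wholly above 1. The thinned share of cartilage cells with a fabp3 UMI was 37.5% (34.8 to 40.4) in the mutant and 25.8% (23.3 to 28.3) in the WT library.

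Clusters spread fabp3 more widely than the gates did. The highest was cluster 9, the mmp13b cluster, with 507 CPM in mutant and 378 CPM (339 to 420) in WT cells. In WT cells its interval overlapped those of cluster 10, at 335 CPM (275 to 403), and cluster 13, at 308 CPM (264 to 357). The lowest was cluster 2, led by clic2, tgm2l and the fibronectin gene fn1b, with 29.9 CPM in mutant and 21.9 CPM in WT cells. Next lowest was cluster 6, led in part by cxcl14, ucmaa and dlx5a, with 78.4 and 51.7 CPM. Both low clusters were low in both libraries, with counting intervals that did not reach those of the other clusters of the same library except WT cluster 12, at 92.0 CPM, beside WT cluster 6. The perichondrial gate, also set on tgm2l and fn1b, held 215 CPM in the mutant and 133 CPM in the WT library. It is thus not the same set of cells as cluster 2.

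**Figure D3:**
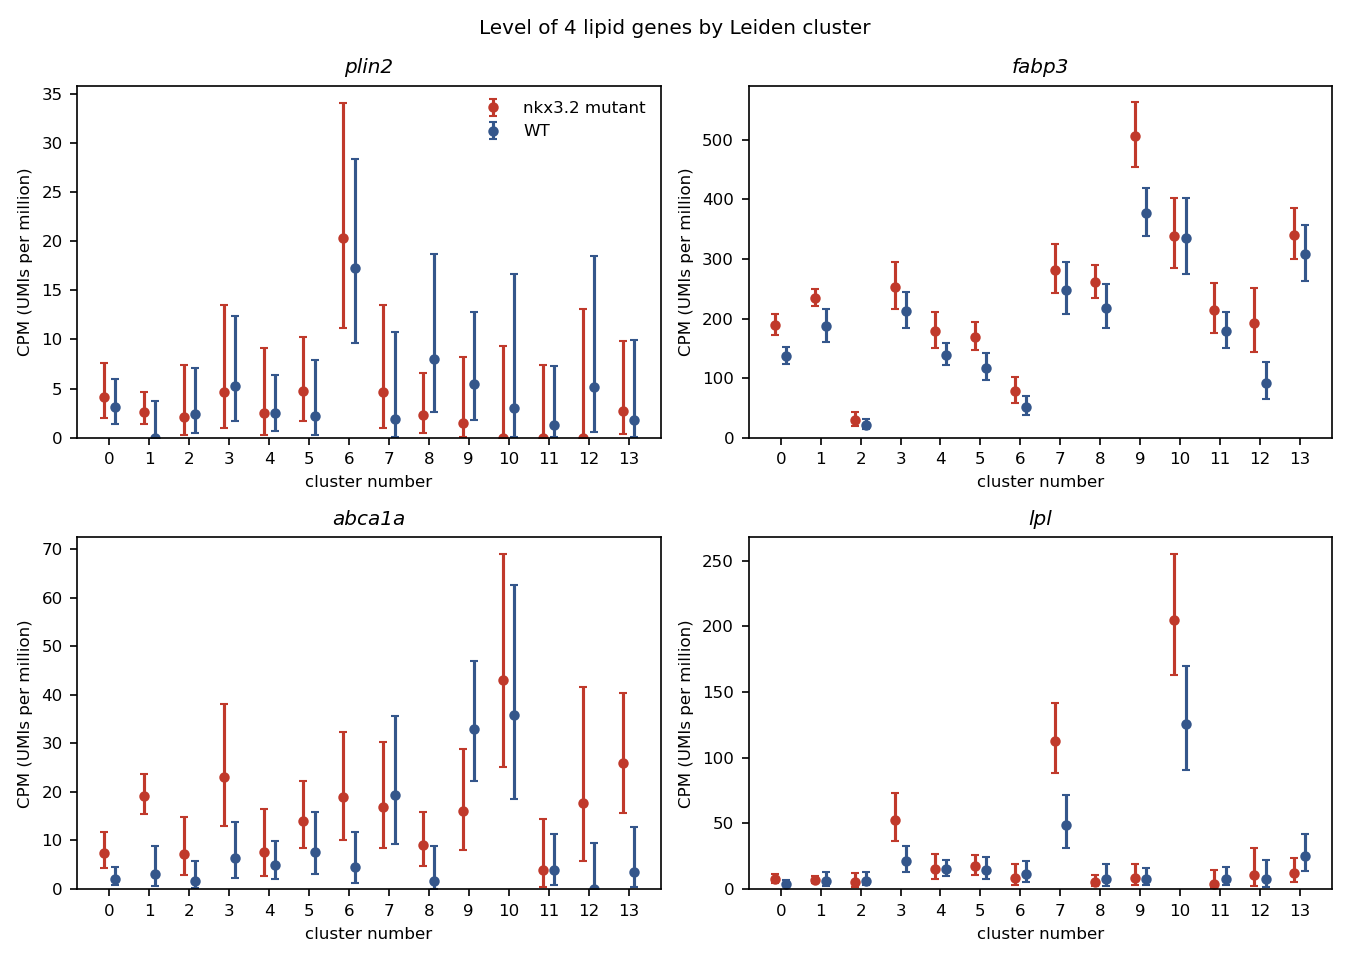
Level in CPM (linear axis) of plin2, fabp3, abca1a and lpl in the 14 clusters with at least 30 cells in each library, mutant library left and WT library right of each pair, with exact Poisson 95% intervals for counting error. In both libraries plin2 peaks in cluster 6, fabp3 in cluster 9 and lpl in cluster 10. The WT fabp3 interval of cluster 9 overlaps those of clusters 10 and 13.

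The retinol carrier gene rbp4 had the most UMIs of the 8. Its protein is best known as the liver's carrier of vitamin A in the blood, and it is also made by fat and connective tissue in mammals. The transcript reached 4082 CPM (3896 to 4275) in mutant and 5177 CPM (4947 to 5415) in WT stromal cells, from 1808 and 1908 UMIs. Fibrous cells held 2449 CPM in the mutant and 2128 CPM in the WT library, krt4-positive cells 2329.8 and 2178 CPM, and cartilage cells 1189.98 and 787 CPM. Liver and yolk markers were at or near 0, with 2 UMIs in all mutant and 1 UMI in all WT cells over 5 genes.

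The rbp4 genotype ratio, pooled over each group, ran in opposite directions in stromal and cartilage cells. It was 0.789 (0.739 to 0.841) in stromal cells, or 0.894 under TMM scaling, and 1.51 (1.47 to 1.55) in cartilage cells. Within cartilage, epyc-high cells gave 1.75 (1.68 to 1.83) and epyc-low cells 1.04 (0.935 to 1.15). The largest ratio among the 8 groups was in mmp13b-positive cells, at 2.47 (2.10 to 2.91), with 855 CPM in the mutant and 347 CPM in the WT library. In these cells epithelial markers summed to 504 CPM in the mutant and 185 CPM in the WT library, hypertrophic cartilage markers to 4643 and 9265 CPM, cartilage markers to 15957 and 27165 CPM and mural markers to 50.9 and 214 CPM, and their part in the ratio was not tested. Fibrous cells gave 1.15 (1.1 to 1.2) and krt4-positive cells 1.07 (1.01 to 1.13). Stromal cells thus stood 3.43-fold (3.26 to 3.6) above cartilage cells in the mutant and 6.58-fold (6.25 to 6.91) in the WT library. With cluster 1 and cluster 16 left out, the cartilage ratio was 1.31. Neither group was uniform. Stromal cells of cluster 10 held 4735 CPM in the mutant and 7037 CPM in the WT library. Those of cluster 3 held 3692 and 3144 CPM and those of cluster 7 held 2947 and 1604 CPM, against the pooled direction. Cartilage cells of cluster 5, at 2066 and 2458 CPM, and of cluster 11, at 371 and 394 CPM, also went against it.

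Clusters also differed in direction for rbp4, though not simply by stromal and cartilage cells. Cluster 10, with the stromal chemokine genes, gave 0.797 (0.744 to 0.853), and cluster 5, led in part by f13a1b, stc2a and mgp, gave 0.878 (0.833 to 0.925). Cluster 9, the mmp13b cluster, gave 2.72 (2.37 to 3.12), and cluster 4, led by dusp2 with nkx3.2 among its leading genes, gave 2.65 (2.33 to 3.02). Of the 14 clusters compared, 11 were above 1 and 3 below. Cluster 5 included 73 mutant and 85 WT cells of the cartilage group. The remaining cluster below 1 was cluster 11, a cartilage cluster, at 0.962 (0.798 to 1.16).

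After thinning, 80.6% of mutant and 64.8% of WT cartilage cells held an rbp4 UMI, beside 95.9% of mutant and 93.9% of WT stromal cells. The lowest shares among the 8 groups were 66.0% of mutant and 31.96% of WT mmp13b-positive cells. How much of these shares free RNA in the droplets adds was not tested.

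The second binding protein gene, fabp11a, is related to the adipocyte fatty acid binding protein gene of mammals, and was rare. It had 13 UMIs in 8 mutant cells and 47 UMIs in 16 WT cells. A single WT stromal cell held 25 of the 47, which is 53.2%, and the next WT cell held 5. That cell, of cluster 10, had 6119 UMIs, with 0 UMIs of the adipocyte, macrophage and endothelium lists and 23 UMIs over 6 of the 7 connective tissue markers. In stromal cells fabp11a had 1 UMI in the mutant and 30 UMIs in the WT library, a ratio of 0.0277 (0.000680 to 0.167), which rests on that cell: without it the whole WT library held 22 UMIs. In fibrous cells, which that cell is not among, the libraries held 8 and 12 UMIs, a ratio of 0.430 (0.152 to 1.14). Cluster 10, to which that cell belongs, held 8 UMIs in 4 mutant cells and 29 UMIs in 5 WT cells. Of those 29, 25 lay in that cell, so no lower mutant level is read from cluster 10.

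The apolipoprotein E gene apoeb, whose product carries lipid between cells and is abundant in macrophages, was found almost wholly in 1 cell. It had 58 UMIs in the mutant and 0 UMIs in the WT library, and 54 of the 58, or 93.1%, lay in 1 mutant cell of the fibrous group and cluster 3. That cell had 12479 UMIs, 0 UMIs of the 10 macrophage markers, 50 UMIs of epcam and 4 UMIs of cdh1, which are epithelial adhesion genes, and 178 UMIs of s100a11. It carried 3 UMIs over 2 of the connective tissue markers and 1 UMI of matn1. The other 4 UMIs lay in 4 mutant cells. The macrophage list as a whole summed to 0.554 CPM in mutant and 1.15 CPM in WT cells.

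**Figure D4:**
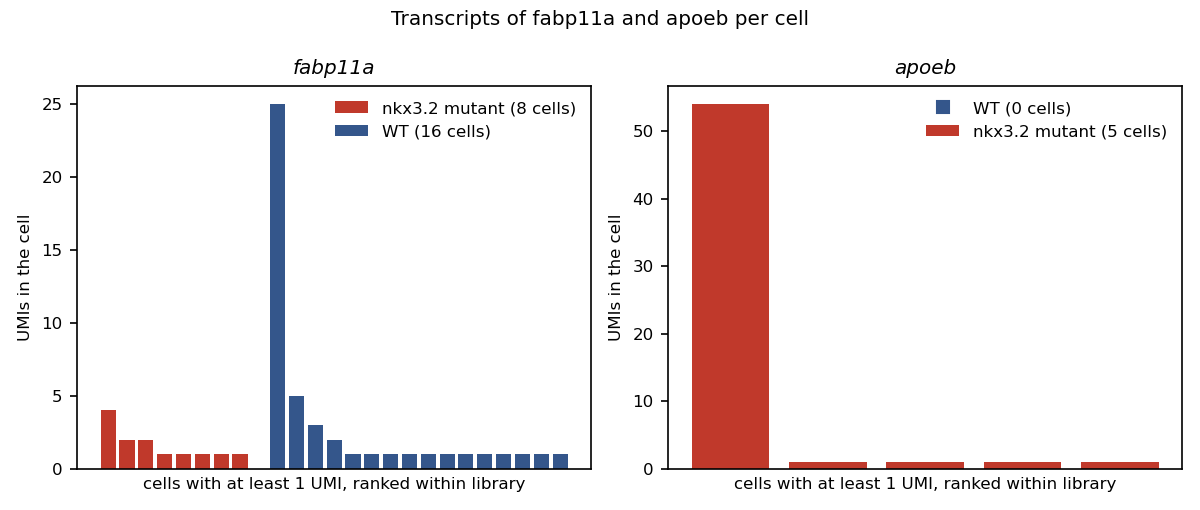
UMIs of fabp11a and apoeb in each cell with at least 1 UMI, ranked within the mutant library (left) and the WT library (right). A single mutant cell holds 54 apoeb UMIs and a single WT cell 25 fabp11a UMIs, and the WT library has no apoeb bar because its count is 0.

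Regulation of fat storage is represented by pparg, the nuclear receptor that drives fat cell differentiation. It had 0 UMIs in 1996 mutant and in 2051 WT cells, which allows a level of up to 0.185 CPM in the mutant and 0.216 CPM in the WT library at 3 UMIs. A count of 0 allows a UMI in up to 0.150% of mutant and 0.146% of WT cells, which limits the cells with a pparg UMI and not the cells that express the gene.

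Storage is represented by plin2, a perilipin that coats lipid droplets in most cell types. It was sparse, with 58 UMIs in 56 mutant cells and 55 UMIs in 51 WT cells, and no cell held more than 3. Cluster 6 was the highest in both libraries, at 20.3 CPM (11.1 to 34.1) in mutant and 17.2 CPM (9.65 to 28.4) in WT cells, from 14 and 15 UMIs, a ratio of 1.18 (0.528 to 2.62). Whole libraries stood at 3.57 CPM in the mutant and 3.96 CPM in the WT library. In cartilage cells the ratio was 0.837 (0.509 to 1.38) and in fibrous cells 1.72 (0.639 to 5.37), so no genotype difference in plin2 was detectable at this depth. Cluster 6, with cxcl14, ucmaa and the genes aqp3a and cyp2ad2 among its leading genes, thus combined the highest plin2 level with a low fabp3 level.

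Over whole libraries lpl, fabp3 and rbp4 each had a ratio of 1.34, plin2 0.901 and abca1a 2.18, which hides the differences between groups given above. Over all cells 2 of the 7 genes with transcripts were at least 2-fold higher in the mutant library, abca1a and apoeb, and 1 at least 2-fold lower, fabp11a, beside 5.45% and 8.51% of 11522 genes. In cartilage cells 1 of 5 genes with a ratio was 2-fold higher, abca1a, and 0 were 2-fold lower, beside 7.45% and 8.56% of 10041 genes. In fibrous cells 1 of 7 was 2-fold higher, apoeb, and 1 lower, fabp11a, beside 5.68% and 13.8% of 6042 genes. In stromal cells 0 of 5 were higher and 1 lower, fabp11a, beside 3.2% and 9.78% of 2158 genes. In krt4-positive cells 1 of 4 was higher, lpl, and 0 lower, beside 4.09% and 8.84% of genes. In mmp13b-positive cells 1 of 3 was higher, rbp4, and 0 lower, beside 3.42% and 12.1% of genes. The gene abca1a alone was higher in six2a-positive, perichondrial and epyc-high cells, beside 10.4%, 6.24% and 8.09% of genes, and 0 were lower, beside 8.23%, 9.82% and 6.73%. In epyc-low cells 0 of 2 passed in either direction, beside 2.44% higher and 16.7% lower. These contrasts are those the genes were chosen from, and nothing is read from the counts.

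Whether the genes occurred in the same cells was described within groups. In mutant stromal cells the 30 cells with an lpl UMI held 4856 CPM of rbp4 (4522 to 5208), against 3637 CPM (3418 to 3867) in the 57 cells without, at median depths of 5431.5 and 4851 UMIs. In WT stromal cells the 21 cells with an lpl UMI held 6768 CPM of rbp4, against 4558 CPM in the 59 without, and the median depths of these WT cells were 4312 and 4364 UMIs. In mutant cartilage cells those with an abca1a UMI held 1806 CPM of rbp4 and those without 1091 CPM, and they were deeper, with medians of 12307 and 8594 UMIs. Of the 153 abca1a UMIs of mutant cartilage cells, 85 lay in the 339 cells of cluster 1. Those 339 cells held 1612 CPM of rbp4, beside 1190 CPM in mutant cartilage cells as a whole. The part of cluster make-up in this rbp4 difference was not tested. For fabp3 in the same stromal cells the levels with and without an lpl UMI were 291 and 352 CPM in the mutant and 309.8 and 305 CPM in the WT library. Stromal cells with an lpl UMI thus held more rbp4 in both libraries, while their fabp3 levels overlapped within counting error. The stromal group was a mix of clusters that differed in both lpl and rbp4. Its cells of cluster 10 held 231 CPM of lpl in the mutant and 157 CPM in the WT library. Those of cluster 3 held 65.9 and 35.2 CPM, and those of cluster 7 held 295 and 42.2 CPM. The part of this mix in the rbp4 difference was not tested. Other groups were not alike in the rbp4 and fabp3 levels of cells with an lpl UMI. In mutant fibrous cells those with an lpl UMI held 3219 CPM of rbp4 and 327 CPM of fabp3, against 2317 and 181 CPM in those without. In WT fibrous cells they held 2167 CPM of rbp4 and 138 CPM of fabp3, against 2122 and 167 CPM, within counting error. In krt4-positive cells rbp4 stood at 3345 CPM with and 2181 CPM without an lpl UMI in the mutant, and at 2079 and 2185 CPM in the WT library. In cartilage cells it stood at 1494 and 1167 CPM in the mutant, and at 812 and 785 CPM in the WT library.

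The level of each gene over 16 points, 8 groups in each of 2 libraries, was compared with that of 6831 genes by Pearson r on log2(CPM + 1). The 8 points of a library share its preparation, and depth differed between libraries and between groups. The closest to lpl were si:ch1073-291c23.2 at 0.933, zfyve21 at 0.932 and the myelin protein family gene pmp22a at 0.931. The closest to rbp4 were slc25a48 at 0.939, mgst1.1 at 0.928 and CABZ01092746.1 at 0.921, and the closest to abca1a were mlx at 0.894, snx1a at 0.884 and a gene known only by a clone name at 0.874. The closest to fabp3 were med11, dtnbp1a and nudcd3 at 0.807, 0.787 and 0.764, and the closest to plin2 were nr0b1, ddx61 and zbtb17 at 0.791, 0.766 and 0.751. Between the genes themselves r was 0.773 for lpl and rbp4, 0.721 for abca1a and fabp3, and 0.148 for fabp3 and rbp4.

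Around these genes, 8 wider lists of lipid genes were described, with 169 of 184 entries found as a single gene in the files. A list gene was counted where the libraries together held at least 20 UMIs, and values are log2 ratios, mutant over WT. The median over all genes was -0.07 in cartilage and -0.23 in fibrous cells, and TMM scaling would add 0.08 and 0.26 to every value there. List medians are therefore set beside the median of all genes.

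Of the lipolysis and uptake list, 3 of 10 measured genes lay above the all-gene median in cartilage cells and 7 below, with a list median of -0.19. The lowest was angptl4, which encodes a secreted inhibitor of lipoprotein lipase, at 40.4 CPM in mutant and 98.96 CPM in WT cartilage cells, a ratio of 0.408 (0.365 to 0.455). In fibrous cells angptl4 stood at 118 CPM in the mutant and 273 CPM in the WT library, a ratio of 0.431 (0.367 to 0.506), and in stromal cells at 169 and 350.0 CPM, a ratio of 0.484 (0.359 to 0.648). The inhibitor transcript was thus lower in the mutant library in cartilage, fibrous and stromal cells alike, with overlapping counting intervals. Any relation between angptl4 and lpl was not tested. The highest in cartilage were the fatty acid transporter gene slc27a1a, at 1.45 (0.982 to 2.18), and the lipoprotein receptor gene lrp1aa, at 1.23 (1.11 to 1.37), while the lipase maturation factor gene lmf2b stood at 0.431 (0.225 to 0.797). In fibrous cells 5 of 7 lay above the all-gene median and 2 below, with lrp1aa at 0.994 and the LDL receptor gene ldlra at 0.958.

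Intracellular carriers had a list median of -0.42 over 11 genes in cartilage and of -0.60 over 10 genes in fibrous cells, with 4 and 3 above the all-gene median. Lowest in cartilage was fabp7a, named for the brain form of the family, with 6 mutant and 57 WT UMIs, a ratio of 0.0881 (0.0310 to 0.204). The col10a1a-positive cartilage cells, which fabp7a helps to mark, numbered 11 in the mutant and 53 in the WT library, and their part in this ratio was not tested. The retinoic acid carrier gene crabp2b stood at 0.467 in cartilage and 0.387 in fibrous cells, and the retinol carrier gene rbp5 at 0.365 (0.254 to 0.521) in fibrous cells. Apart from fabp3 and rbp4, the highest carriers with at least 50 UMIs in fibrous cells were the sterol carrier gene npc2, at 0.679, and the acyl-CoA carrier gene dbi, at 0.639. In cartilage the lipid transfer genes scp2a and stard4 stood at 1.25 (0.934 to 1.67) and 1.07 (0.705 to 1.63). The fabp3 and rbp4 ratios in cartilage, 1.45 and 1.51, lay within the scp2a interval. Both genes were chosen with their ratios in view, so no rank among the carriers is read from them.

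Lipoprotein and efflux genes were mostly below the count minimum, with 4 of 22 measured in cartilage cells. Their median of 1.12 lies between abca1b and pltp, which encodes a phospholipid transfer protein and had 23 mutant and 5 WT UMIs, a ratio of 3.85 (1.43 to 13). The paralogue abca1b was at 2.10 CPM in mutant and 1.71 CPM in WT cartilage cells, a ratio of 1.23 (0.639 to 2.43), and clu, which encodes clusterin, at 0.608 (0.505 to 0.732). In fibrous cells, with 3 genes measured, clu stood at 0.785 (0.581 to 1.06). The paralogue apoea had 0 UMIs in both libraries. Whether reads of abca1a and abca1b were told apart in full is not given in the sources used here.

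Nuclear receptors and adipogenic factors had a median of -0.02 over 13 genes in cartilage, with 7 above the all-gene median, and of -0.97 over 8 genes in fibrous cells, with 2 above. In cartilage nr1h3, the liver X receptor gene whose product activates ABCA1 in mammals, stood at 3.95 CPM in mutant and 2.11 CPM in WT cells, a ratio of 1.87 (1.1 to 3.30), from 47 and 21 UMIs. The factor gene klf15 was at 1.56 (1.04 to 2.38) in cartilage, while the retinoid X receptor gene rxraa was at 0.555 and cebpb at 0.413 (0.346 to 0.492). In fibrous cells cebpa stood at 0.381 (0.245 to 0.584), rxraa at 0.423 and cebpb at 0.441, and cebpd at 1.22 (1.05 to 1.41).

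Droplet and triglyceride genes had a median of 0.14 over 10 genes in cartilage and 0.53 over 8 genes in fibrous cells, with 6 and 7 above the all-gene median. The gene lpin1, which encodes lipin, a phosphatidate phosphatase on the path to triglyceride, led in both. It stood at 45.8 CPM in mutant and 14.9 CPM in WT cartilage cells, a ratio of 3.08 (2.56 to 3.72), and at 82.0 and 16.3 CPM in fibrous cells, a ratio of 5.05 (3.26 to 8.17). The acyltransferase genes agpat2 and gpat3 were at 1.72 (1.02 to 2.99) and 1.03 in fibrous cells, where the acyl-CoA synthetase gene acsl4b was at 0.645. The related acyl-CoA synthetase genes acsl4a and acsl4b were at 1.48 (0.896 to 2.5) and 0.766 (0.598 to 0.979) in cartilage, and acsl3b at 0.722.

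Of the synthesis and oxidation lists, most genes lay below the all-gene median in cartilage. Sterol synthesis had 3 of 12 above, with a median of -0.31, but its groups differed: in perichondrial cells 0 of 10 measured genes had a log2 ratio above 0, with a median of -0.93, and in epyc-high cells 7 of 11 did, with a median of 0.11. In it msmo1, a sterol demethylation gene, was at 1.47 (1.28 to 1.70) in cartilage and 2.01 (1.37 to 3.01) in fibrous cells, while sc5d was at 1.14, and hsd17b7 and cyp51 at 0.575 and 0.631, in cartilage. The sterol sensor gene insig1 was at 0.581 in fibrous cells. Fatty acid synthesis had 2 of 7 above, with a median of -0.33, with the elongase gene elovl1b at 0.475 (0.424 to 0.531) acaca at 0.511 (0.362 to 0.716), fasn at 0.802 and acsf2 at 1.19. In fibrous cells elovl1b was at 0.512 and the desaturase gene fads2 at 0.929. Fatty acid oxidation had 4 of 17 above, with a median of -0.27. There hadhaa, of the mitochondrial trifunctional protein, was at 0.304 (0.190 to 0.475), while pdk2a and pdk4, whose kinases restrain glucose oxidation, were at 1.75 (1.50 to 2.04) and 1.48 (1.0 to 2.20), and hadhab at 0.478. In fibrous cells, with 5 of 14 above, pdk2a was at 1.52 (1.06 to 2.20), etfb at 1.02, hadhb at 0.614 and pdk2b at 0.592. Fatty acid synthesis there had 1 of 3 above and sterol synthesis 3 of 5.

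**Figure D5:**
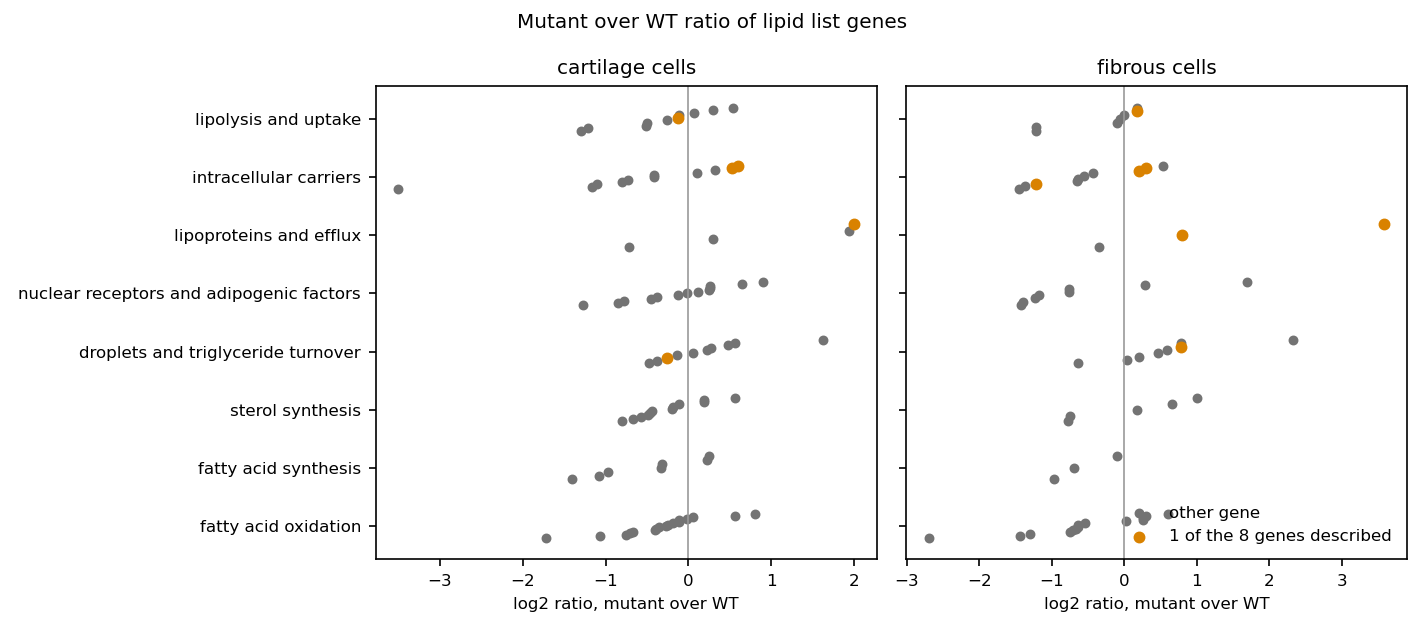
Log2 ratio, mutant over WT, of each measured gene of the 8 lipid lists in cartilage cells (left) and fibrous cells (right); orange points are the genes described above, grey points the other list genes, and the vertical line marks 0. In fibrous cells the apoeb point at 3.59 is a lower bound against 3 WT UMIs and rests on 1 cell. The highest points in the droplet list are lpin1, at 1.62 in cartilage and 2.34 in fibrous cells, and the lowest carrier in cartilage is fabp7a, at -3.50.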

How the data were processed

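Counts of UMIs per gene and cell barcode were deposited by the authors. The submitters' processing notes name Cell Ranger, whose version, like the genome build, is not given in the sources used here, and no coordinates or sequences are printed. Cells had at least 500 UMIs, 300 genes and at most 20% mitochondrial UMIs (0 failed). Scrublet within Scanpy 1.11.5 called 9 mutant and 3 WT doublets, 0 mutant and 3 WT cells had over 5% globin UMIs, and all were left out. Further doublets may remain.

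Gates were taken in order: krt4, mmp13b and bone genes at 3 UMIs or more, then an Otsu cut on cartilage genes. Below it, cells with 3 UMIs of ccl25b and cxcl12a were stromal and the rest fibrous. Above it followed six2a (2 UMIs), col10a1a (5 UMIs), a surface gate (f13a1b and mgp, 0 cells), perichondrial genes (5 UMIs) and an epyc cut at 7.50 UMIs per 10000. The gate below the epyc cut was planned as matn1-high and is called epyc-low because its matn1 level is the lower. The bone gene positive group (14 mutant and 31 WT cells) and the col10a1a-positive group (11 and 53) held too few cells to compare. Leiden clusters (leidenalg 0.10.2, resolution 1, 2000 variable genes, 30 principal components, 20 neighbours) gave 17 clusters, which carry no cell type name. UMIs were summed per group and library and divided by the group total (CPM), with exact Poisson, Clopper-Pearson and conditional binomial intervals. Computation used Python 3.11.15, numpy 2.4.6, scipy 1.17.1, pandas 2.3.3, anndata 0.12.19, scikit-learn 1.9.0 and matplotlib 3.10.9, and the ratio code was tested on simulated data.

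The genes, lists, gates and the naming rule were chosen with earlier results of these data known. The rule names the 8 genes, in each list the 2 highest and 2 lowest ratios among genes with at least 50 UMIs in cartilage and in fibrous cells, and the 3 closest genes by likeness; clusters, pltp, abca1b, apoea and the stromal angptl4 value were added after their values were seen. The protocol text gives 21 days for both libraries, and the characteristics were used.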

Additional observations from a re-analysis of the deposited data

Results flagged for a closer look

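The rbp4 ratio in stromal cells, mutant over WT, was 0.789, below 1 with its whole counting interval, whereas in 6 other cell groups the ratio and its interval were above 1. Without mitochondrial and ribosomal protein genes it was 0.863 and under TMM scaling 0.894, both nearer to 1 and above the counting interval. The opposite directions drew attention to it. The difference between the groups was not tested, since each genotype is 1 library.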

How the results depend on the processing

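Of 383 alternative values for 38 genotype ratios, 354 stayed within the counting interval of the reported ratio, 29 lay outside it, and 0 crossed 1 where the interval did not hold 1. In 19 cases where the interval held 1, the value fell on the other side of 1. Alternatives that left under 20 UMIs gave no value and are not counted. This removed the stromal fabp11a ratio without its top cell, the cell on which that ratio rests. The apoeb ratio, with 0 WT UMIs, was not put to the alternatives. In cartilage cells the fabp3 ratio was 1.62 without mitochondrial and ribosomal protein genes and 1.33 with equal weight per cluster. The rbp4 ratio there was 1.59 with a cut per library, 1.69 without mitochondrial and ribosomal protein genes, 1.60 under TMM scaling, 1.43 by the mean of per-cell CPM, 1.31 with equal weight per gate, 1.33 with equal weight per cluster and 1.31 without clusters 1 and 16. In fibrous cells the fabp3 ratio was 1.48 under TMM scaling, and the rbp4 ratio was 1.29 without mitochondrial and ribosomal protein genes, 1.38 under TMM scaling and 1.03 with no krt4 gate. In stromal cells the rbp4 ratio was 0.863 without mitochondrial and ribosomal protein genes and 0.894 under TMM scaling. For rbp4 in stromal over cartilage cells, per-cell means gave 3.90 in the mutant and 6.92 in the WT library, and clusters gave 7.51 in the WT library. The percent of cartilage cells with an abca1a UMI was 10.4 in the mutant and 2.21 in the WT library without thinning, and 1.79 in the WT library when thinned to 4400 UMIs. The cause of these differences was not tested. The other alternatives were Scrublet calls or globin cells kept, a stricter cell filter, the top cell left out and gate minimums 1 higher or lower; leaving out clusters 1 and 16 and the krt4 gate were chosen after seeing the data. The abca1a ratio in cartilage cells ranged from 2.75, with equal weight per cluster and counts under 3 UMIs raised to 3, to 4.47. The lpl ratio ranged from 1.46 to 1.94 in stromal and from 2.11 to 3.80 in krt4-positive cells. No paired analysis was possible because the labels name no animal or batch that the 2 libraries share, and with 1 library per genotype none could be left out. Depth limits plin2, fabp11a, apoeb and pparg, with at most 58 UMIs in a library.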
